A study of Rattus norvegicus with 8 samples.

Results

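The genes described here are 42 regulators of the cell division cycle, chosen by name: cyclins, cyclin-dependent kinases (CDKs), CDK inhibitors, the E2F transcription factors with their partners, and the enzymes and transcription factors that act on them. Of these, 39 had a row in the deposited table of 32623 rat genes, each with 1 row, and all 39 passed the filter on low counts. Ccnb2, Cdkn2d and E2f1 were not analysed here. Lung tissue of rats (Rattus norvegicus) was measured by RNA sequencing of poly(A)-selected RNA in 4 libraries from animals given monocrotaline (MCT), which is used to model pulmonary hypertension, and 4 libraries from the control group. The labels give the tissue and the treatment and name no strain, age, dose, time after treatment or control vehicle, nor whether each library stands for an animal of its own. A p-value here thus measures library-to-library spread, which may be technical. Monocrotaline comes from Crotalaria plants and damages the lung circulation.

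A dividing cell passes from growth (G1) through DNA synthesis (S) and a second gap (G2) to mitosis (M), driven by CDKs that act only when bound to a cyclin. D-type cyclins with CDK4 or CDK6 phosphorylate the retinoblastoma (pocket) proteins, which releases E2F factors to switch on genes for S phase, and cyclins A and B with CDK1 later drive mitosis. Inhibitors of the Cip/Kip family bind cyclin-CDK complexes, and inhibitors of the INK4 family bind CDK4 and CDK6. In the adult lung most cells are out of the cycle, so transcripts of the mitotic regulators are normally low there.

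Libraries held 11.3 to 18.1 M read pairs in MCT and 10.8 to 14.8 M in control. MCT 1 and control 1 stood apart from the others on the second principal component of log2 CPM (counts scaled to library size). They also had the highest scores of ciliated cell markers, with a mean log2 CPM of 5.03 in MCT 1 (2.44 to 3.78 in MCT 2 to 4) and of 4.46 in control 1 (3.21 to 4.0 in control 2 to 4). The main counts are therefore also given without these libraries.

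In MCT lungs, 22 of the 39 cell cycle regulators were higher than in control lungs, 1 was lower and 16 did not pass the threshold. The mitotic kinase gene Cdk1 was at 18.5 ± 3.17 FPKM in MCT and 3.87 ± 1.85 in control (SD, n = 4 each), and the gene of the G1 cyclin D1, Ccnd1, at 131 ± 17.2 and 55.3 ± 7.94 FPKM. FPKM (fragments per kilobase of transcript, scaled for depth) allows levels to be compared between genes. The gene that was lower was Cdkn1b, which encodes the CDK inhibitor p27, at 44.1 ± 6.99 FPKM in MCT and 77.1 ± 6.07 in control. The kinase genes Cdk2, Cdk4 and Cdk6 and the pocket protein genes Rb1, Rbl1 and Rbl2 were not called.

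These calls rest on edgeR's quasi-likelihood test over 16715 genes, with a two-sided Benjamini-Hochberg adjusted p under 0.05. Over all genes tested, 11.0% were called higher and 9.45% lower, or 20.5% in either direction, against 23 of the 39. The median log2 fold change (MCT over control) was 0.69 over the 39 genes and 0.03 over all genes tested. Rises of at least 1 on the log2 scale were called for 16 of the 39, against 3.70% of all genes tested, and falls of that size for none of the 39, against 1.78%. The MCT libraries lay above every control library on log2 CPM for 24 of the 39 genes and below every control library for 1. Over all genes tested those shares were 13.7% and 11.6%. Of the 22 genes that were higher, 13 were called without each library in turn, as was Cdkn1b. Without MCT 3, 14 were called higher. Without both MCT 1 and control 1 the counts were 20 higher, 18 of them among the 22, and 2 lower. That fit called 1816 of 16754 genes higher and 1713 lower. In bulk tissue a larger number of cells of a type and more of a transcript per cell cannot be told apart.

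**Figure D1:**
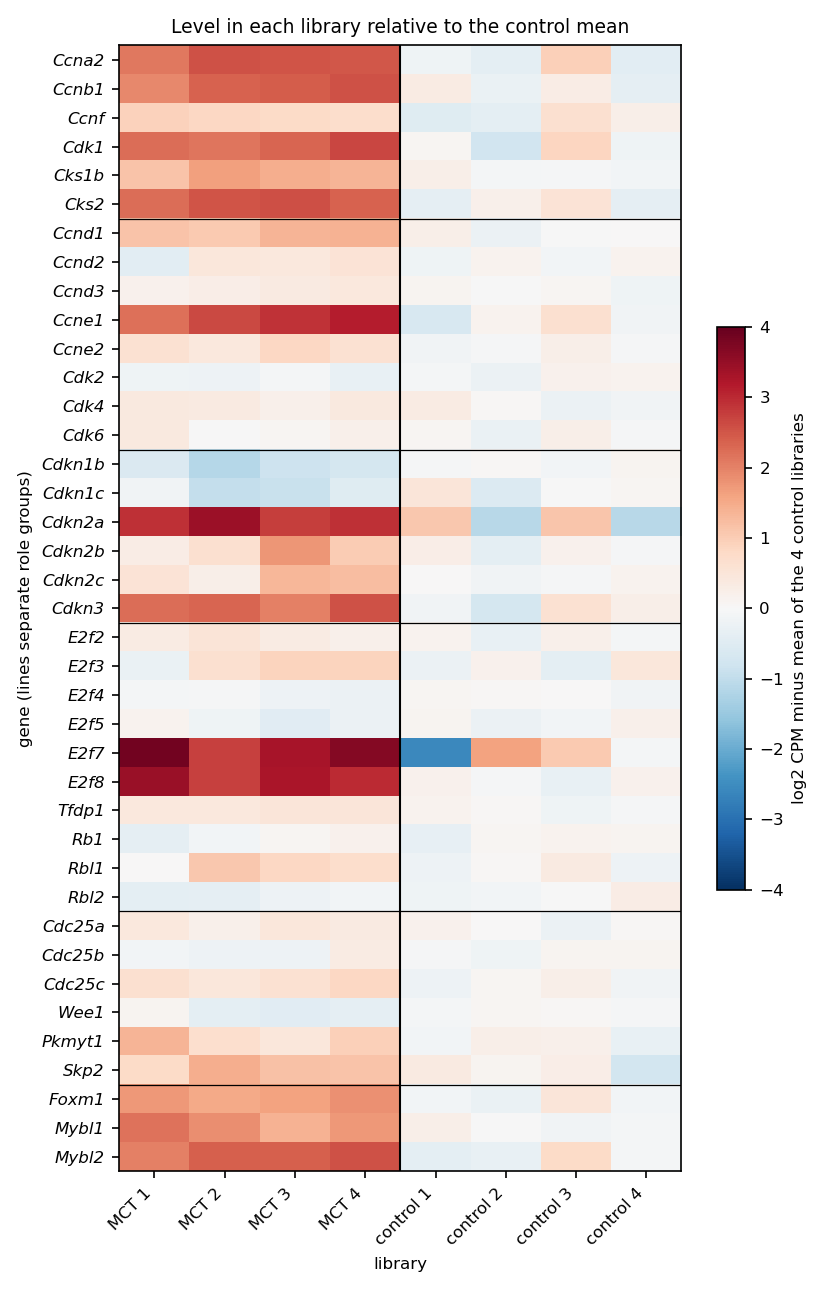
Level of each of the 39 genes in each library as log2 CPM minus the mean of the 4 control libraries (colour scale), with the MCT libraries on the left of the vertical line and genes grouped by role. Cdk1 lies at 2.15 to 2.68 in MCT and at -0.78 to 0.85 in control, and Cdkn1b at -1.16 to -0.57 in MCT.

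The plot of fold changes shows the spread among the genes. Those called at the largest log2 fold changes were E2f8 (3.30), Cdkn2a (3.16), E2f7 (2.94) and Ccne1 (2.76), and all 4 were at under 0.5 FPKM in each control library. Cdkn2a passed the filter on low counts through its MCT libraries, as each control library held 0 to 2 read pairs. E2f7 and E2f8 did so too, as their control libraries held 0 to 10 and 2 to 4 read pairs, with the lowest under the cut. With counts taken as read pairs Cdkn2a did not pass the filter and was not tested. A filter on FPKM removed Cdkn2a, E2f7 and E2f8. Of the 16 genes called higher by at least 1, 15 had a control mean under 5 FPKM, the exception being Ccnd1. Of the 16 genes not called, 7 had a control mean under 5 FPKM. Smaller rises were called too: Tfdp1 was called at 0.45 (SE 0.08) and Ccnd3 at 0.30 (SE 0.09).

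**Figure D2:**
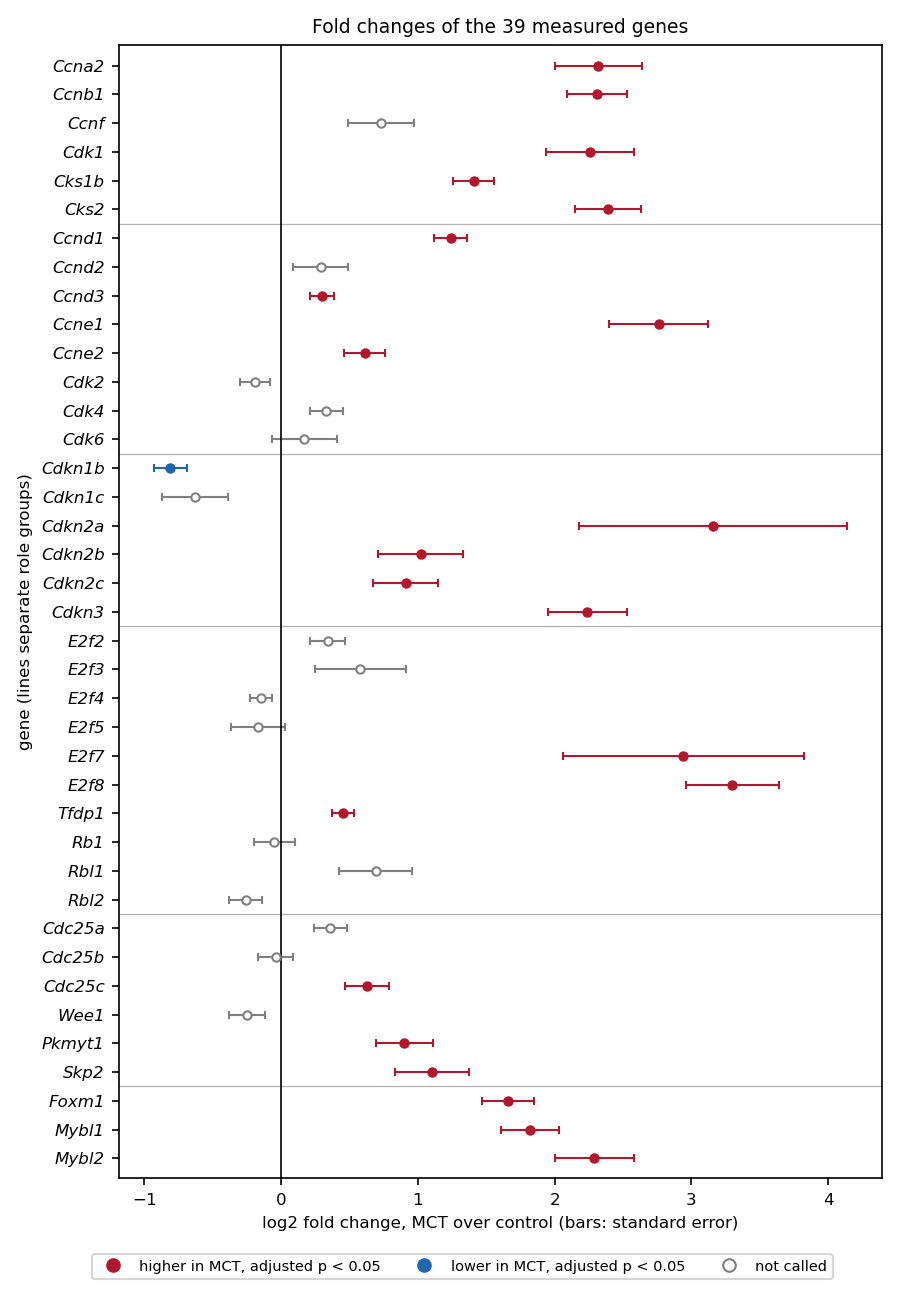
Log2 fold change of each gene, MCT over control, with its standard error (bars), by role group from the mitotic cyclins at the top to FOXM1 and the MYB family at the bottom. Filled red points were called higher in MCT, the filled blue point (Cdkn1b, -0.81) was called lower, and open grey points were not called.

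Among the mitotic cyclins and the partners of CDK1, 5 of 6 genes were higher and none was lower, with a median log2 fold change of 2.28. Of all genes tested, 11.0% were higher and 9.45% lower. Cdk1 stood at 16.7, 15.9, 18.4 and 23.0 FPKM in MCT 1 to 4 and at 3.83, 2.0, 6.39 and 3.25 FPKM in control 1 to 4. No libraries overlapped between groups, and control 3 was the highest control library. Its log2 fold change was 2.26 (SE 0.32, edgeR adjusted p = 0.00187). Cks2, which encodes a small subunit that binds CDKs, was at 14.8, 18.3, 19.4 and 16.3 FPKM in MCT and at 2.43, 3.54, 4.54 and 2.44 FPKM in control, a log2 fold change of 2.39 (SE 0.24, edgeR adjusted p = 0.000499). Every MCT library was above every control library. The other CDK-binding subunit gene, Cks1b, was at 8.68 to 12.4 FPKM in MCT and 3.68 to 4.68 FPKM in control and was called at 1.41 (SE 0.15).

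Ccnb1, the gene of cyclin B1, which activates CDK1 at the entry to mitosis, was at 6.32, 8.77, 9.26 and 9.91 FPKM in MCT and at 2.13, 1.36, 2.04 and 1.33 FPKM in control (log2 fold change 2.31, SE 0.22, edgeR adjusted p = 0.000426). All MCT libraries were above all control libraries, with MCT 1 the lowest of the MCT libraries. Ccna2, the gene of cyclin A2, which serves S phase and G2, was at 4.90, 6.74, 6.66 and 6.47 FPKM in MCT and at 1.01, 0.84, 2.22 and 0.87 FPKM in control, a rise of 2.32 (SE 0.32). MCT 1 was again the lowest MCT library and control 3 the highest control library. Ccna2 overlaps Exosc9 on the opposite strand, and the sources used here do not say whether the counting used strand; Exosc9 rose by 0.35.

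Ccnf, the gene of cyclin F, which works in a ubiquitin ligase and not with a CDK, was the member of this group that was not called. It was at 5.16 to 5.80 FPKM in MCT and at 2.26, 2.32, 4.92 and 3.80 FPKM in control. Groups were apart, but the control libraries were spread, and the log2 fold change of 0.73 (SE 0.24) had an edgeR adjusted p of 0.0629. Without control 3 it was 0.99 and was called.

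Promoters were searched for sequence motifs of cell cycle genes. RefSeq promoters on the rat build GRCr8, from 250 bases before to 50 bases after the gene start, were found by symbol for 25 of the 39 genes, 15 of them called higher, 1 called lower and 9 not called. Cell cycle genes of G2 and mitosis are known for promoters with the cell cycle genes homology region (CHR, searched as TTTGAA) and several CCAAT boxes (CCAAT), and genes of S phase for E2F sites (searched as TTCCCGC, with the variants TTGGCGC, further TTCGCGC, and finally TTGCCGC). Both strands were searched and overlapping matches were each counted. The 7 promoters printed were chosen among those with matches and are those of 5 genes that rose, of Cdkn1b, which fell, and of Cdk2, which was not called; capitals mark matches to any of these motifs on either strand. The windows are chr20:19265043-19265342 for Cdk1 (plus strand), chr17:13727470-13727769 for Cks2 (minus strand), chr15:22502136-22502435 for Cdkn3 (plus strand), chr2:33655176-33655475 for Ccnb1 (minus strand), chr7:48036653-48036952 for E2f7 (plus strand), chr4:169491254-169491553 for Cdkn1b (plus strand) and chr7:1721829-1722128 for Cdk2 (minus strand), all on GRCr8 and each written in the direction of its gene.
Cdk1: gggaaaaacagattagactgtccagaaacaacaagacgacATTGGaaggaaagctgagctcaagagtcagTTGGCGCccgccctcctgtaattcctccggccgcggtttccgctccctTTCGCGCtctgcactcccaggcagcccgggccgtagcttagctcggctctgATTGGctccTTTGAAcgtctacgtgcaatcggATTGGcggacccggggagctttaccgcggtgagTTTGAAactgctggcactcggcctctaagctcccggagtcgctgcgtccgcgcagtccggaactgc
Cks2: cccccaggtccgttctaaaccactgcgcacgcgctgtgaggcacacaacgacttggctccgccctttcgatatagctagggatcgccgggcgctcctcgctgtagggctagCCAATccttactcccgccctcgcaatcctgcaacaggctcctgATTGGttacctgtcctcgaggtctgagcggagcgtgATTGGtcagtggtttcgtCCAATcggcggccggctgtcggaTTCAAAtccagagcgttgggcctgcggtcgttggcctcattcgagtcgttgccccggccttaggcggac
Cdkn3: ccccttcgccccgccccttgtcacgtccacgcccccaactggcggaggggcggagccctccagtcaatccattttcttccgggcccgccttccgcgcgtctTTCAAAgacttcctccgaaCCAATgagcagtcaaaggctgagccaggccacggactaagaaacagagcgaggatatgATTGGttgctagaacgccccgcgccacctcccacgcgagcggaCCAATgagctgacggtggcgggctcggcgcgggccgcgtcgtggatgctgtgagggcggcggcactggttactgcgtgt
Ccnb1: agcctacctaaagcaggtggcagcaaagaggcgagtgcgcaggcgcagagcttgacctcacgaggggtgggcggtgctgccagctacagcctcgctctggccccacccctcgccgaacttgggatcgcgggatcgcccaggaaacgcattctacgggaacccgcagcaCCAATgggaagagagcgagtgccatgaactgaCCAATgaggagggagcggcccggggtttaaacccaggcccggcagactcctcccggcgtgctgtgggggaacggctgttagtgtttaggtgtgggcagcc
E2f7: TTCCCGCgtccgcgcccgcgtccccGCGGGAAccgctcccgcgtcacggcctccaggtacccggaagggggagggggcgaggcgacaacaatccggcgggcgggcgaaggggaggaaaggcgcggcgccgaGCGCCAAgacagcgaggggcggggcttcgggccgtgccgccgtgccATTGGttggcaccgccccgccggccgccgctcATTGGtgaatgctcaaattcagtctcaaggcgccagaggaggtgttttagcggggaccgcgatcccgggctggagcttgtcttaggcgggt
Cdkn1b: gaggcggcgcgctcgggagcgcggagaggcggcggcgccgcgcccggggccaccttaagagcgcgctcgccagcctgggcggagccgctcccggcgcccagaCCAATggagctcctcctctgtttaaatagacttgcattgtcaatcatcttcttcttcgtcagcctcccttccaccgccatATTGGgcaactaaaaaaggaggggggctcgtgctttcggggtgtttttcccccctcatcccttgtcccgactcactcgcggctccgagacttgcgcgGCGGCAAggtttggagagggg
Cdk2: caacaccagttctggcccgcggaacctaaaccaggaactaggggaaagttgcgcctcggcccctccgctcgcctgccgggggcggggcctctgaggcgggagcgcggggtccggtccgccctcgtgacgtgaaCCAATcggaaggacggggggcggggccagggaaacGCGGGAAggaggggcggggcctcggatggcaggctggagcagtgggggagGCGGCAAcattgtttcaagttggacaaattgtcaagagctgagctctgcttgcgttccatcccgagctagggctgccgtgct

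The Cdk1 window held 3 CCAAT boxes, starting 210, 81 and 49 bases before the gene start, 2 CHR matches, starting 72 and 16 bases before it, and 2 E2F-like matches. Those of Cks2, Cdkn3 and Ccnb1 held 4, 3 and 2 CCAAT boxes. Cks2 and Cdkn3 each had 1 CHR match, and Ccnb1 had none in this window. The E2f7 window held 3 E2F-like matches and 2 CCAAT boxes, the Cdkn1b window 2 CCAAT boxes and 1 E2F-like match, and the Cdk2 window 1 CCAAT box and 2 E2F-like matches.

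Among genes called higher, 4 of the 15 windows (Ccne1, Cdkn2a, Skp2 and Mybl2) held no match to any of the motifs. Only exact letters were searched, so a window without a match can still hold a variant of a site. The Mybl2 window, for example, holds TTGGCGG, which differs from the searched TTGGCGC in its last letter. A CHR match was present in 7 of 15 windows of genes called higher (46.7%) and 3 of 9 of genes not called (33.3%), against 18.3% of all 33469 RefSeq promoters of the same length. That background was not selected by gene type or base composition. At least 2 CCAAT boxes were present in 7 of 15 (46.7%) and 2 of 9 (22.2%), against 11.2% of all promoters. Both features together were in 5 of the 15 (Cdk1, Cks1b, Cks2, Cdkn3 and Cdc25c) and in 2 of the 9 (Ccnf and E2f3), against 2.12% of all promoters. The E2F-like motif was in 3 of 15 windows of genes called higher (20%) and 5 of 9 of genes not called (55.6%), against 9.52% of all promoters. Both shares rest on few windows. Ccna2, Ccnd1, Ccne2, E2f8, Foxm1, Mybl1 and Pkmyt1 were called higher and had no window. These are descriptions with no test, and a match shows letters, not a bound factor.

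The D-type cyclins couple growth signals to the cycle and their 3 genes differed widely in level. Ccnd1 was at 118, 113, 145 and 146 FPKM in MCT and at 64.9, 45.6, 54.4 and 56.5 FPKM in control. The groups lay far apart, and the rise was 1.24 (SE 0.12, edgeR adjusted p = 0.000474). Ccnd3 was at 102, 110, 120 and 125 FPKM in MCT and at 101, 88.0, 97.4 and 82.9 FPKM in control, so that MCT 1 was barely above control 1. It was called at 0.30 (SE 0.09, edgeR adjusted p = 0.0454), and 6 of the 8 fits that left out a library lost that call.

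Ccnd2 was at 11.2 FPKM in MCT 1, below every control library (13.6 to 17.2), and at 20.9 to 22.2 FPKM in the other 3 MCT libraries, above every control library. Over all libraries its log2 fold change was 0.29 (SE 0.20, edgeR adjusted p = 0.355), and without MCT 1 it was 0.47 and was called. The 3 D-type cyclins together summed to 264 ± 30.1 FPKM in MCT and 163 ± 12.8 in control (SD, n = 4 each). Ccnd1 made up 46.4% to 51.1% of that sum in MCT and 30.3% to 36.1% in control, while Ccnd3 was the most abundant D-type cyclin in every control library.

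E-type cyclins act with CDK2 at the start of S phase. Ccne1 was at 1.47, 2.01, 2.48 and 2.86 FPKM in MCT and at 0.19, 0.33, 0.48 and 0.28 FPKM in control, a rise of 2.76 (SE 0.36, edgeR adjusted p = 0.00134). The groups did not overlap, although the control values rest on 6 to 11 read pairs per library. Ccne2 was at 3.03 to 4.09 FPKM in MCT and at 2.08 to 2.64 FPKM in control and rose by 0.61 (SE 0.15, edgeR adjusted p = 0.0189). That call was lost without MCT 3, without control 2 and without both MCT 1 and control 1, and Ccne2 overlaps Ints8 on the opposite strand, which fell by 0.27. The ratio of Ccne1 to Ccne2 in FPKM was 0.436 to 0.83 in MCT and 0.0913 to 0.182 in control, so Ccne2 stayed the more abundant in all 8.

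The kinase partners of these cyclins did not pass the threshold. Cdk4 was at 103, 103, 94.4 and 106 FPKM in MCT and at 101, 80.2, 68.3 and 73.7 FPKM in control (log2 fold change 0.33, SE 0.12, edgeR adjusted p = 0.0840). Control 1 overlapped the MCT libraries, and without it the log2 fold change was 0.45 and was called. Cdk4 also overlaps Tspan31 on the opposite strand, which rose by 0.26 and was called. Cdk2 was at 10.7 to 12.6 FPKM in MCT and 10.8 to 14.7 FPKM in control, and Cdk6 at 1.34 to 1.76 and 1.08 to 1.6 FPKM. Their log2 fold changes were -0.19 (SE 0.11) and 0.17 (SE 0.24), with overlapping groups for both. The Cdk1 to Cdk2 ratio in FPKM was 1.39 to 2.14 in MCT and 0.186 to 0.434 in control.

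CDK inhibitors of the set moved in both directions: of 6 with a row, 4 were higher and 1 lower in MCT, against 11.0% and 9.45% of all genes tested. Cdkn1b was at 50.8, 34.6, 43.7 and 47.4 FPKM in MCT and at 75.5, 77.1, 70.5 and 85.2 FPKM in control. The groups did not overlap, and MCT 2 was the lowest library. The fall was by 0.81 on the log2 scale (SE 0.12, edgeR adjusted p = 0.00257), and the gene was called lower under all 20 alternative settings. It lies on chromosome 4 from 168689163 to 168693964 on Rnor_6.0, the build of the deposited table.

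Cdkn1c, which encodes the Cip/Kip inhibitor p57, was at 24.7, 14.3, 15.2 and 19.9 FPKM in MCT and at 39.1, 18.4, 27.5 and 29.8 FPKM in control. Control 2 lay among the MCT libraries, and the log2 fold change of -0.63 (SE 0.24) had an edgeR adjusted p of 0.104. With the replicate number as a block it was -0.62 and was called (adjusted p = 0.0122). Without MCT 1 or without control 2 it was also called. Cdkn1b and Cdkn1c summed to 48.8 to 75.5 FPKM in MCT and 95.5 to 115 FPKM in control. The third gene of that family, Cdkn1a (p21), is outside the set and not in this sum.

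The INK4 genes with a row were higher, each with a thin margin. Cdkn2c (p18) was at 9.49, 7.68, 17.0 and 15.7 FPKM in MCT and at 6.75, 5.83, 6.35 and 7.49 FPKM in control, and rose by 0.91 (SE 0.24, edgeR adjusted p = 0.0281). MCT 2 was just above control 4, and MCT 3 and 4 were well above all others. The Cdkn2c call was lost in 6 of the 8 fits that left out a library, with log2 fold changes of 0.74 to 1.08 over the 8, and with limma on log2 FPKM at each pseudocount tried (adjusted p = 0.0501 to 0.0637). Cdkn2b (p15) was at 5.41, 6.95, 15.6 and 9.11 FPKM in MCT and at 5.46, 3.29, 4.99 and 4.45 FPKM in control. MCT 1 fell among the control libraries in FPKM, though not on log2 CPM, and MCT 3 was the highest. Its call (log2 fold change 1.02, SE 0.31, edgeR adjusted p = 0.0461) was lost in 7 of the 8 fits that left out a library, with log2 fold changes of 0.66 to 1.20, and with the replicate block (adjusted p = 0.0591).

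Cdkn2a, whose locus encodes p16 and, in another reading frame, ARF, was listed at 0.63, 0.94, 0.58 and 0.64 FPKM in MCT and at 0.14, 0.00, 0.15 and 0.00 FPKM in control. The values stand on 38 read pairs over the MCT libraries and 4 over the control libraries, an 8.67-fold ratio per library total with an exact 95% interval of 3.12 to 33.5 that covers counting error only. The edgeR adjusted p was 0.0487, and all 8 fits that left out a library lost the call, as did the replicate block (adjusted p = 0.0980). Cdkn2a lies on chromosome 5 from 107823330 to 107841175 on Rnor_6.0, with Cdkn2b beside it, from 107845951 to 107858104, 4775 bases on. The gene table has a single value for Cdkn2a, so p16 and ARF transcripts were not separated. The summed FPKM of these 3 INK4 genes was 15.5 to 33.2 in MCT and 9.12 to 12.3 in control, below the sum of Cdkn1b and Cdkn1c in all 8 libraries. Cdkn2d, also an INK4 gene, was not analysed here and is not in this sum.

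Cdkn3 encodes a phosphatase that removes the activating phosphate from CDKs. It was at 10.3, 11.2, 9.13 and 13.2 FPKM in MCT and at 2.01, 1.29, 3.35 and 2.60 FPKM in control, without overlap, and rose by 2.24 (SE 0.29, edgeR adjusted p = 0.00126). That size was close to that of Cdk1 and Ccnb1 and above that of the INK4 genes Cdkn2b and Cdkn2c; the differences between genes were not tested.

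**Figure D3:**
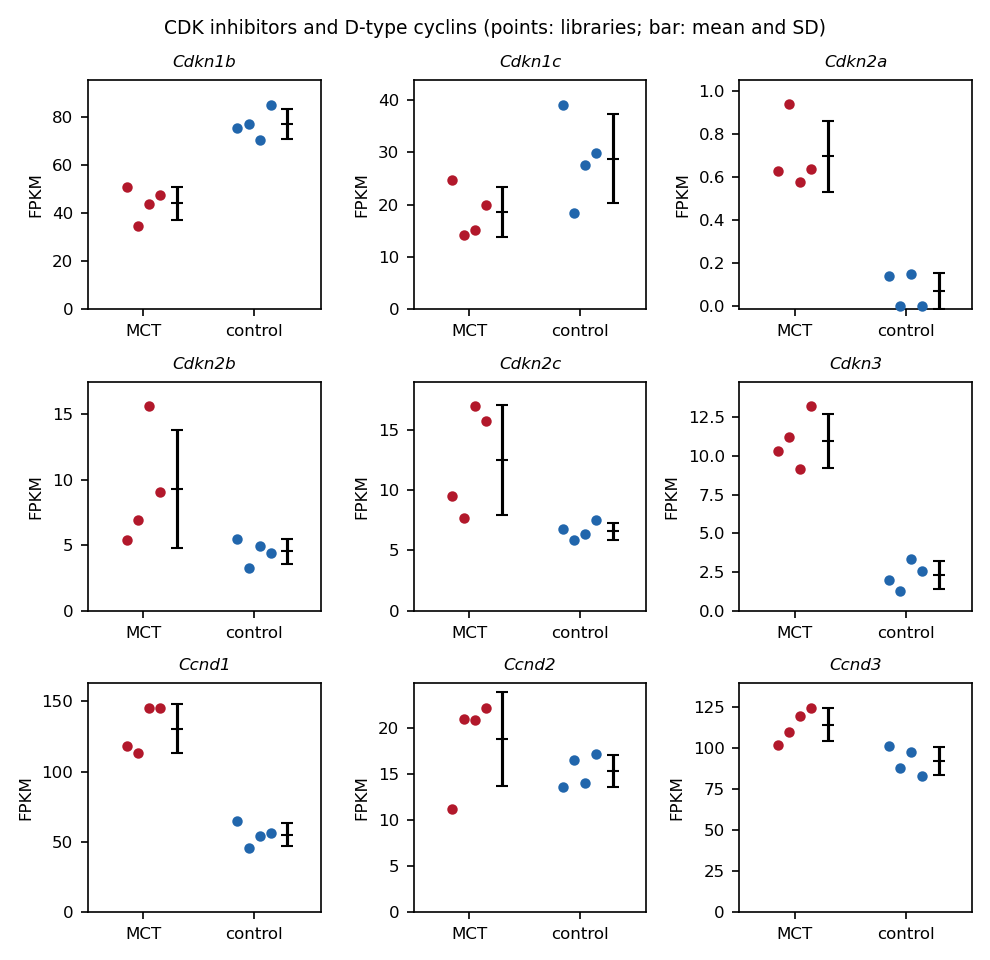
FPKM of the 6 CDK inhibitor genes of the set and the 3 D-type cyclins in each library (points), with the mean and SD of each group (black bars), MCT on the left and control on the right of each panel. Cdkn1b lies at 34.6 to 50.8 FPKM in MCT and at 70.5 to 85.2 in control, and MCT 1 stands below the other MCT libraries for Ccnd2.

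Among E2F factors, their DP partner and the pocket proteins, 3 of 10 genes were higher and none lower, with a median log2 fold change of 0.39. The shares over all genes tested were 11.0% higher and 9.45% lower. E2f8 and E2f7, the atypical E2Fs that repress E2F targets without a DP partner, rose. E2f8 was at 1.15, 0.71, 1.04 and 0.84 FPKM in MCT and at 0.10, 0.08, 0.07 and 0.10 FPKM in control (log2 fold change 3.30, SE 0.34, edgeR adjusted p = 0.000505). E2f7 was at 1.0, 0.46, 0.70 and 0.89 FPKM in MCT and at 0.00, 0.20, 0.13 and 0.05 FPKM in control (log2 fold change 2.94, SE 0.88, edgeR adjusted p = 0.0445).

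Neither gene's groups overlapped, but the control values rest on few reads. For E2f8 there were 138 read pairs over the MCT libraries and 13 over the control libraries, a 9.69-fold ratio per library total (exact 95% interval 5.48 to 18.7). For E2f7 there were 148 and 17, a 7.95-fold ratio (4.80 to 14.0). Both intervals cover counting error only and not the spread between libraries. The E2f8 call was kept without each library in turn, while that of E2f7 was lost in 6 of the 8 fits and with the replicate block (adjusted p = 0.113).

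Tfdp1, the gene of DP1, a DNA-binding partner of the E2Fs other than E2f7 and E2f8, was at 30.6, 31.0, 33.2 and 33.0 FPKM in MCT and at 26.0, 23.6, 20.8 and 23.2 FPKM in control. The groups did not overlap, and the rise of 0.45 (SE 0.08, edgeR adjusted p = 0.00520) was small beside those of the mitotic genes. The activating E2Fs E2f2 and E2f3 were not called: E2f2 was at 4.64 to 5.68 FPKM in MCT and 3.18 to 4.62 in control (0.34, SE 0.13), and E2f3 at 0.66 to 1.54 and 0.61 to 1.13 FPKM (0.58, SE 0.33). E2f4 and E2f5, which act mainly as repressors in resting cells, had log2 fold changes of -0.15 (SE 0.08) and -0.17 (SE 0.20), and E2f5 was at 3.57 to 5.24 FPKM in MCT and 4.01 to 5.70 FPKM in control. E2f4 was the most abundant E2F of the set, at 25.4 to 29.0 FPKM in MCT and 27.8 to 31.8 in control, and made up 68.0% to 70.0% of the summed FPKM of E2f2, E2f3, E2f4, E2f5, E2f7 and E2f8 in MCT and 71.9% to 78.6% in control. E2f6, which is outside the set and not in that sum, was at 15.62 to 17.95 FPKM in MCT and 15.40 to 18.95 FPKM in control.

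The pocket proteins hold E2Fs inactive. Rb1 was at 6.18 to 9.31 FPKM in MCT and 6.56 to 8.99 in control, and its log2 fold change of -0.05 (SE 0.15) changed sign without MCT 1. Rb1 overlaps Lpar6 on the opposite strand, which rose by 0.91. Rbl2 (p130), the pocket protein of resting cells, was at 11.4 to 14.1 FPKM in MCT and 13.6 to 19.1 in control (-0.26, SE 0.12, edgeR adjusted p = 0.143). Rbl1 (p107), itself an E2F target, was at 1.0 FPKM in MCT 1, among the control libraries (0.88 to 1.31), and at 1.66 to 2.17 FPKM in the other 3 MCT libraries. Its log2 fold change was 0.69 (SE 0.27, edgeR adjusted p = 0.101), and without MCT 1 it was 0.87 and was called.

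FOXM1 and the MYB family member MYBL2 drive transcription of G2 and mitosis genes, MYBL2 together with the MuvB complex. All 3 genes of this group were higher, against 11.0% of all genes tested. Foxm1 was at 4.75, 4.11, 4.47 and 5.20 FPKM in MCT and at 1.34, 1.16, 1.99 and 1.37 FPKM in control, a rise of 1.66 (SE 0.19, edgeR adjusted p = 0.000680). Mybl2 was at 2.22, 2.93, 2.96 and 3.23 FPKM in MCT and at 0.42, 0.43, 0.93 and 0.52 FPKM in control, a rise of 2.29 (SE 0.29, edgeR adjusted p = 0.00107). Control 3 was the highest control library for both, and no groups overlapped. Mybl1, best known from male germ cells of the mouse, rose by 1.82 (SE 0.21), at 1.16 to 1.9 FPKM in MCT and 0.38 to 0.51 in control.

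**Figure D4:**
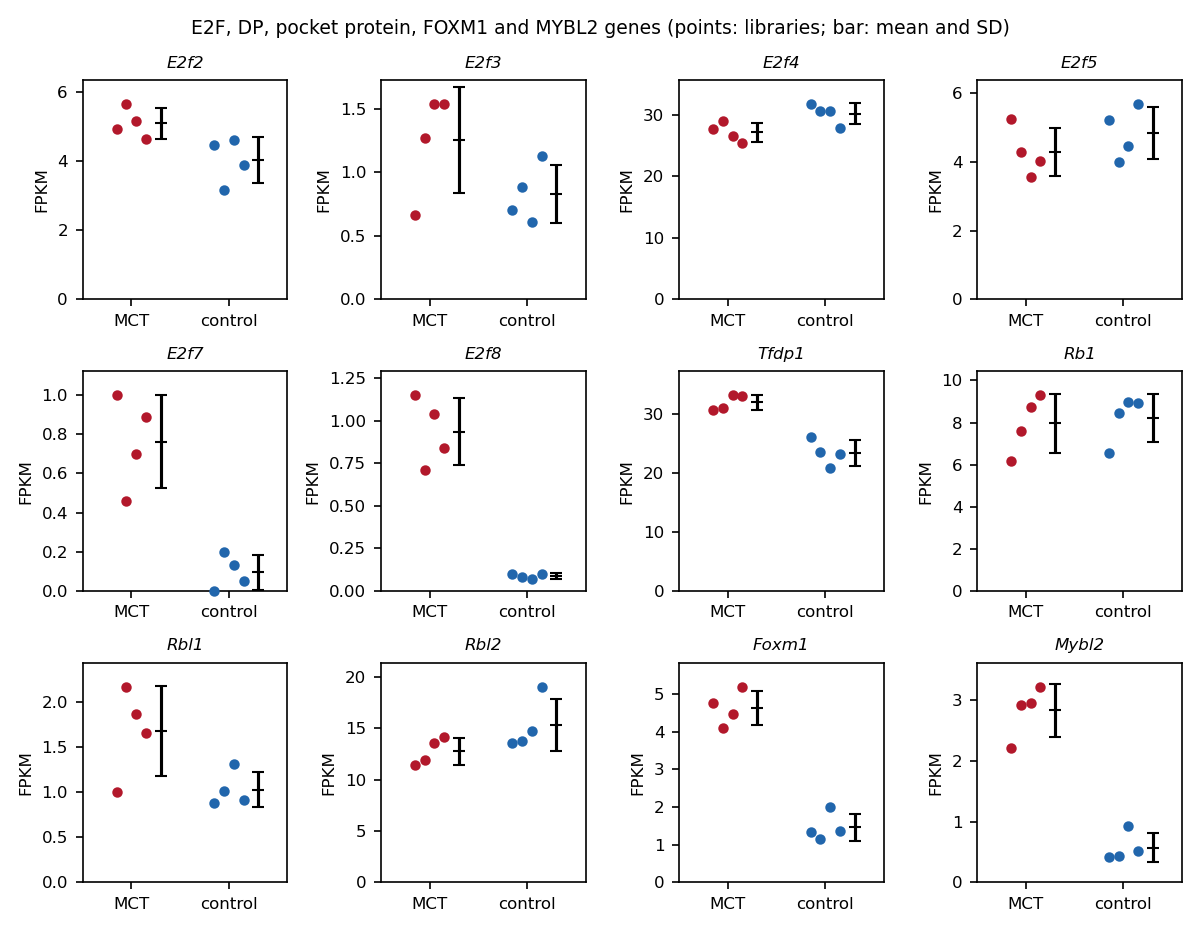
FPKM of the E2F, DP, pocket protein, Foxm1 and Mybl2 genes in each library (points), with the mean and SD of each group (black bars), MCT on the left and control on the right of each panel. E2f7, E2f8, Foxm1 and Mybl2 do not overlap between groups, whereas E2f4, E2f5 and Rb1 do.

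The kinases WEE1 and PKMYT1 hold CDK1 inactive by phosphorylation, and the CDC25 phosphatases reverse it. Pkmyt1 was at 9.30, 5.84, 5.14 and 7.15 FPKM in MCT and at 3.42, 4.17, 4.15 and 3.0 FPKM in control and rose by 0.90 (SE 0.21, edgeR adjusted p = 0.0177). The groups did not overlap, but the call was lost without control 4 (adjusted p = 0.0501), without both MCT 1 and control 1 (adjusted p = 0.0520), and with the replicate block (adjusted p = 0.0519). It overlaps Paqr4 on the opposite strand, which was at -0.34 and not called. Wee1 was at 13.7 FPKM in MCT 1 and 9.66 to 10.2 FPKM in the other MCT libraries, against 12.3 to 13.3 FPKM in control. Its log2 fold change was -0.25 (SE 0.13, edgeR adjusted p = 0.199), and without MCT 1 it was -0.39 and was called.

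Of the phosphatases, Cdc25c, which acts at the entry to mitosis, was at 2.32 to 2.99 FPKM in MCT and 1.47 to 1.96 in control, a rise of 0.63 (SE 0.16, edgeR adjusted p = 0.0239) that was called in 3 of the 8 fits that left out a library and not with the replicate block (adjusted p = 0.0633). Cdc25a was at 4.66 to 5.65 FPKM in MCT and 3.44 to 4.56 in control, without overlap, but was not called (0.36, SE 0.12, edgeR adjusted p = 0.0629). Cdc25b was at 10.8 to 15.4 FPKM in MCT and 10.7 to 13.7 in control, with a log2 fold change of -0.04. Skp2, the subunit of the ubiquitin ligase that marks p27 for breakdown, was at 1.61, 2.65, 2.22 and 2.13 FPKM in MCT and at 1.25, 1.0, 1.14 and 0.58 FPKM in control. It rose by 1.10 (SE 0.27, edgeR adjusted p = 0.0210) without overlap, a call kept in 5 of the 8 fits.

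The libraries of a group did not share a rank over these genes. Of the 22 genes called higher, MCT 4 was the highest MCT library for 9 and the lowest for none, and MCT 1 was the lowest for 10. Among control libraries, control 3 was the highest for 10 and control 1 for 9, while control 2 was the lowest for 9. Such ranks were not counted over all genes tested. Control 3 also had the highest score of the 16 G2 and mitosis genes outside this set among control libraries, a mean log2 CPM of 2.85 against 1.95 to 2.18, with 4.27 to 4.45 in the MCT libraries.

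Other genes of the pathway, in lists without any of the 42, differed by kind. Over all genes tested, 11.0% were called higher and 9.45% lower. Of 16 G2 and mitosis genes, 15 were higher and none lower (median log2 fold change 2.13), among them Prc1 at 1.70 (SE 0.08) and Tpx2 at 3.07 (SE 0.25), both spindle factors. Of 16 genes of DNA licensing and S phase, 14 were higher and none lower (median 1.08), with the thymidine kinase gene Tk1 at 1.9 (SE 0.16) and Pcna, the sliding clamp of DNA polymerase, at 0.62 (SE 0.06). Of 18 genes of ubiquitin ligases, the anaphase-promoting complex and its regulators, 7 were higher and none lower (median 0.22). Among them were Bub1b at 2.66 (SE 0.27) and Cdc20 at 1.82 (SE 0.21). The subunit genes of that complex in the list, Cdc16, Cdc23, Cdc27, Anapc2, Anapc10 and Anapc11, were not called.

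Of 12 genes of the DREAM and MuvB complexes and other E2F cofactors, only Rbbp7, a histone-binding protein gene, was called (higher, 0.28, SE 0.06), with a list median of 0.08. Of 6 checkpoint genes 1 was higher, the kinase gene Chek2, at 0.76 (SE 0.24), barely under the threshold and called in 1 of the 8 fits that left out a library, and none lower (median 0.19). A single call in each of these short lists is close to the share over all genes tested, 11.0% higher and 9.45% lower. Of 25 other cyclins and CDKs tested, many of which serve transcription and not the cycle, 1 was higher and 6 lower (median -0.09). Ccng1 was the higher one, at 1.10. Ccnt2, which encodes a cyclin of the elongation kinase CDK9, fell by 0.56 (SE 0.13) and was called in all 8 fits that left out a library. The other 5 that fell, Ccnt1, Cdk10, Cdk12, Cdk13 and Cdk14, were each called in 1 to 3 of those fits; these 5 are named after their values were seen.

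Marker lists of the cell types a lung sample can hold were counted too, beside 11.0% of all genes tested called higher and 9.45% called lower. Of 8 tested macrophage markers 6 were higher and none lower in MCT, and their summed level was 528 to 947 FPKM in MCT and 258 to 388 in control, with the scavenger receptor gene Marco at 0 to 0.11 FPKM in all libraries. Of 7 fibroblast markers 4 were higher and none lower (1170 to 1870 FPKM in MCT, 674 to 893 in control), and of 7 mast cell markers 6 were higher and 1, Kit, lower (212 to 956 and 63.5 to 65.9 FPKM). Kit alone made up most of the control sum, at 46.7 to 57.3 FPKM in control and 16.7 to 32.8 FPKM in MCT. The mean log2 CPM of the 7 mast cell markers was 5.38 to 7.14 in MCT and 1.81 to 2.83 in control. Of 9 endothelial markers 3 were lower and none higher (532 to 700 FPKM in MCT, 834 to 940 in control). Of 9 T and NK cell markers 4 were lower and 1 higher (58.1 to 72.2 FPKM in MCT, 83.7 to 127 in control).

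Of 8 alveolar type 2 markers 5 were lower and 1 higher (20600 to 26700 FPKM in MCT, 28700 to 37100 in control), and of 7 alveolar type 1 markers 2 were lower and none higher (2720 to 3300 and 3470 to 3820 FPKM). Of the B and plasma cell markers 1 of 6 was higher (248 to 394 FPKM in MCT, 154 to 244 in control), and of the smooth muscle markers 1 of 8 (736 to 1170 and 685 to 956 FPKM), with none lower in either list. A single call in lists this short is close to the share over all genes tested. None of the ciliated, erythroid precursor and cardiac markers tested (13, 6 and 6 genes) was called by edgeR. Their summed FPKM overlapped between the groups, at 363 to 746 in MCT and 573 to 782 in control for ciliated markers, 909 to 1450 and 802 to 3240 for erythroid precursor markers, and 26.5 to 142 and 29.2 to 62.9 for cardiac markers. The part of these shifts in the levels of the cell cycle genes was not tested, and the tissue data do not say which cells carried the transcripts.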

How the data were processed

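RNA sequencing of 8 rat lung libraries (4 MCT, 4 control) was used as deposited. Per the submitters' processing notes, the authors named cutadapt 1.9, HISAT2 2.0.4, StringTie 1.3.4d and edgeR with build Rnor_6.0; order and settings are not given in the sources used here. Per the file headers, the deposited table holds an estimated count and an FPKM value per gene and library. The deposited estimated counts are whole numbers in which 1 read pair is worth about 3.67 units, found by a periodogram of low values, so read pairs are units divided by that value. Since the table held counts, they were tested with edgeR's quasi-likelihood test (edgeR 4.0.16, R 4.3.3) with filterByExpr (minimum count 10), TMM scaling, robust dispersion and Benjamini-Hochberg adjustment over 16715 genes. This step was tested on simulated data. Log2 CPM used a prior count of 2. Fold changes are MCT over control.

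Samples were grouped by title. No libraries were duplicates (chi-square per gene at least 15.1). Alternatives were DESeq2 1.42.0, limma 3.58.1 on log2(FPKM + 0.5) with pseudocounts 0.1 and 1, other scaling and filters, the replicate block, a ciliated score covariate, counts per read pair and libraries left out. The set of genes and all lists were chosen with earlier results of these data known. All 39 measured genes are reported; of the pathway lists, the 2 called genes of smallest p and any gene called against the list's majority were named, and marker lists are given by counts and ranges. Ccne1 stood in 2 lists and was counted once, in the main set.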

Additional observations from a re-analysis of the deposited data

Results flagged for a closer look

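For 4 of the 78 combinations of gene and group examined, the libraries included 1 that was distant from its 3 fellows; chance alone gives about 1 in 20, or 3.9. Its distance from the closest library, divided by the spread from lowest to highest on log2 CPM, was 0.857 for Ccna2, where MCT 1 was low at 4.90 FPKM. It was 0.880 for Ccnd2, where MCT 1 was low at 11.2 FPKM, and 0.837 for Cdk4, where MCT 3 was low at 94.4 FPKM. For Rb1 it was 0.872, with control 1 low at 6.56 FPKM.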

How the results depend on the processing

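Of the 23 called genes, 14 kept their call and direction under every alternative in which they were tested, 9 lost the call under at least 1 (Ccnd3, Ccne2, Cdkn2a, Cdkn2b, Cdkn2c, E2f7, Cdc25c, Pkmyt1 and Skp2), and none changed direction. Of the 16 genes not called, 7 were called under at least 1. Leaving out each library in turn gave 14 (without MCT 3) to 22 cell cycle genes higher and 1 to 3 lower (3 without MCT 1, where Cdkn1c and Wee1 joined Cdkn1b). The 22 higher without MCT 1 included 20 of the 22 of the main fit. Over all genes, leaving out each library gave 1191 to 1946 higher and 975 to 1730 lower, against 1845 and 1579. The lowest of these counts were those without MCT 2. The number lower was 2 with DESeq2, with the replicate block and without both MCT 1 and control 1. Deviations of same-numbered libraries from their group means correlated at 0.11, 0.0165, -0.0165 and -0.0848 for numbers 1 to 4. Number 1 had the highest value of all 16 pairs of an MCT and a control library, but MCT 2 correlated best with control 4, and the numbers were not taken as pairs. With the replicate block, 16 were higher, and of 16715 genes 1436 were higher and 1271 lower. It ended the calls of Ccnd3, Cdkn2a, Cdkn2b, E2f7, Cdc25c and Pkmyt1, made that of Cdkn1c and changed no other. Cdc25b and Rb1, not called, changed sign when 1 library was left out, with ranges of -0.18 to 0.02 and -0.15 to 0.04; Cdc25b was at 0.01 without MCT 2, 0.02 without MCT 3 and 0.00 without control 4. Without the filter on low counts, 18 were higher. With counts per read pair the filter on low counts removed Cdkn2a, and the FPKM filter removed Cdkn2a, E2f7 and E2f8. Few read pairs limit these 3 genes and Ccne1.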
